A study of Mus musculus with 4 samples.

Results

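The Toll-like receptor genes were described in microglia, the macrophages that live in the brain tissue, taken from naive mice. The 10 members are Tlr1 to Tlr9 and Tlr13, taken by gene symbol, and all 10 were among the 56832 gene rows of each library. The 4 libraries, replicates 1 to 4 of 1 group, came from female C57BL/6 mice that had no intervention, and the labels give no age. Brain cells were sorted through a conventional gate of CD45 low to intermediate and CD11b-positive cells, and the total RNA went into a low-input library kit. The series set such cells beside graft-derived brain myeloid cells. Only the 1 group was analysed here, and no groups were compared. Nothing in the labels ties each library to a separate mouse, so a p-value measures only how these samples spread, and that spread may be technical.

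Toll-like receptors are membrane proteins that bind conserved molecules of microbes and some products of damaged cells. Those of the cell surface bind mainly microbial lipids and proteins, and those of endosomes bind nucleic acids. Most signal through the adaptor MyD88, TLR3 signals through TRIF, and TLR4 uses both, leading to NF-kappa-B, AP-1 and interferon regulatory factors. In the brain, microglia are known as the main cells that carry them.

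The libraries held 20360121 to 23292655 reads assigned to genes, and a count of 0 would allow up to 0.129 to 0.147 CPM (3 counts, scaled as counts per 1000000 assigned reads, CPM), for counting error only. All 9 microglial markers used were above 100 CPM in every library, among them Tmem119, P2ry12 and Sall1. They summed to 35154, 21199, 20995 and 34003 CPM in replicates 1 to 4. Of the neuron list and of the T and NK cell list, 0 of 8 genes each reached 1 CPM in every library. The neuron list summed to 0.0485, 10.6, 19.8 and 0.147 CPM and the T and NK cell list to 0.0485, 7.97, 7.34 and 0.0491 CPM, both higher in replicates 2 and 3. The libraries stood apart in immediate early genes, known for a rapid response to stimulation and to tissue handling: the 12 listed summed to 4719.7, 56169, 49171 and 5088 CPM. Genes with a count numbered 14850, 18978, 18431 and 13944.

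The position and sequence of the genes bear on how their reads could be counted. Tlr1 and Tlr6 are neighbours on chromosome 5, and Tlr7 and Tlr8 are neighbours on chromosome X, which also holds Tlr13. Tlr1 and Tlr6 were the only pair of members that shared a long stretch. Their coding sequences held an identical run of 229 bases, at coding bases 1468 to 1696 of Tlr1 and 1507 to 1735 of Tlr6. In the GENCODE annotation of GRCm38 it lies within coding sequence on the minus strand, at chr5:64925537-64925765 in Tlr1 and chr5:64953828-64954056 in Tlr6. The longest such run of any other pair was 16 bases. The run is shown because a short read from inside it fits both genes:
Tlr1 and Tlr6 shared run: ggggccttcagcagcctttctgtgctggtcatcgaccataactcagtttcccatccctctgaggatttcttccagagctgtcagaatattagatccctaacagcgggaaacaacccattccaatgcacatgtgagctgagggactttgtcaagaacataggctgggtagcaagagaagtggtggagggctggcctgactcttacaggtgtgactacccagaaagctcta

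In all, 15.3% of the 50-base words of the longest Tlr1 transcript and 12.6% of those of Tlr6 occurred in another gene. Reads that align to several places stood in a separate row of the files, at 3.46% to 4.03% of reads listed, and were given to no gene, so the levels of Tlr1 and Tlr6 are uncertain by reads that could not be told apart. Of the exon bases of Tlr3, 7.32% overlap Gm45542 on the opposite strand, whose reads cannot be told apart where counting ignores strand. The other 7 members shared no exon base and no 50-base word with another annotated gene.

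Promoter windows of RefSeq on GRCm38.p6, from 250 bases before to 50 bases after a gene's start, were found for 8 of the 10 members, with 10 starts in all. The table had no entry for Tlr4 and Tlr7. Sequences are shown for the highest 2 and the lowest 2 members that had one, from the window's first base to the first annotated exon base, 5′ to 3′ on the gene's strand. Capitals in Tlr2 mark GGG followed by 5 bases of any kind and CC, a loose form of the NF-kappa-B site searched on both strands (matches that overlap run together), and in the others GAGGAA, the core that PU.1 binds, likewise on both strands. They stand at chr3:83841768-83841858 (minus strand), chrX:106143025-106143203 (plus), chrX:167264330-167264579 (minus) and chr9:106222348-106222597 (plus), in the order printed:
Tlr2: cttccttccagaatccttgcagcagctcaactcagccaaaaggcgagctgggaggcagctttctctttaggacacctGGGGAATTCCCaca
Tlr13: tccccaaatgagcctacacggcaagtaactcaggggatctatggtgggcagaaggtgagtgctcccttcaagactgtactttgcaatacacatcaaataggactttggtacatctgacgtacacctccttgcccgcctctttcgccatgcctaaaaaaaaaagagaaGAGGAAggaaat
Tlr8: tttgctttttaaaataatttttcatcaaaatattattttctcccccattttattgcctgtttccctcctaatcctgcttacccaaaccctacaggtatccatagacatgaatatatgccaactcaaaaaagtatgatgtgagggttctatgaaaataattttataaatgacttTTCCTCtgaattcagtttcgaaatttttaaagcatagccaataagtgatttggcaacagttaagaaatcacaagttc
Tlr9: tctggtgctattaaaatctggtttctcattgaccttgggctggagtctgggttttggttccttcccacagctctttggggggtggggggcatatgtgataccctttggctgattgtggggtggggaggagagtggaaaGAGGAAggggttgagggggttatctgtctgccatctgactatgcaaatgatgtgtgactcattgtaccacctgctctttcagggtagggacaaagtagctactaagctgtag

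The NF-kappa-B letters occurred in 4 of the 10 member windows and in 50.8% of all 32851 windows. The Tlr2 window held 5 overlapping matches in 2 places, the second of them inside an exon of GENCODE and not shown. The PU.1 letters occurred in 4 of 10 member windows, those of Tlr1, Tlr13, Tlr8 and Tlr9, and in 28.3% of all windows. The window of Tlr9 held the PU.1 letters at 2 places, 1 of them after the start and not shown. The AP-1 letters TGANTCA, on both strands, occurred in 1 member window, that of Tlr9, and in 7.81% of all. The letters TATAAA of the TATA box, TTGCNNAA of C/EBP and an ISRE core, GAAA repeated after 2 bases of any kind, were also searched on both strands. They occurred in 2, 4 and 1 of the 10 member windows and in 13.6%, 10.8% and 3.44% of all windows. A match is only a match of letters, and high and low members alike held them.

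Levels were compared between members as CPM per kb of exon, because CPM also grows with transcript length. By the mean of that measure Tlr2 came first, at 119 ± 47.5 (SD, n = 4), followed by Tlr13 at 84.8 ± 12.2 and Tlr7 at 77.9 ± 21.0. Tlr1 stood at 26.4 ± 12.1, Tlr4 at 24.8 ± 4.25, Tlr3 at 19.4 ± 3.64 and Tlr6 at 12.1 ± 2.59 CPM per kb. The lowest were Tlr5 at 3.27 ± 0.769, Tlr8 at 1.99 ± 1.34 and Tlr9 at 0.943 ± 0.631 CPM per kb. Mean levels per kb of Tlr2, Tlr13 and Tlr7 lay at the 98.1, 97.3 and 97.0 percentiles of genes with a count, and those of Tlr8 and Tlr9 at 56.6 and 46.6.

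**Figure D1:**
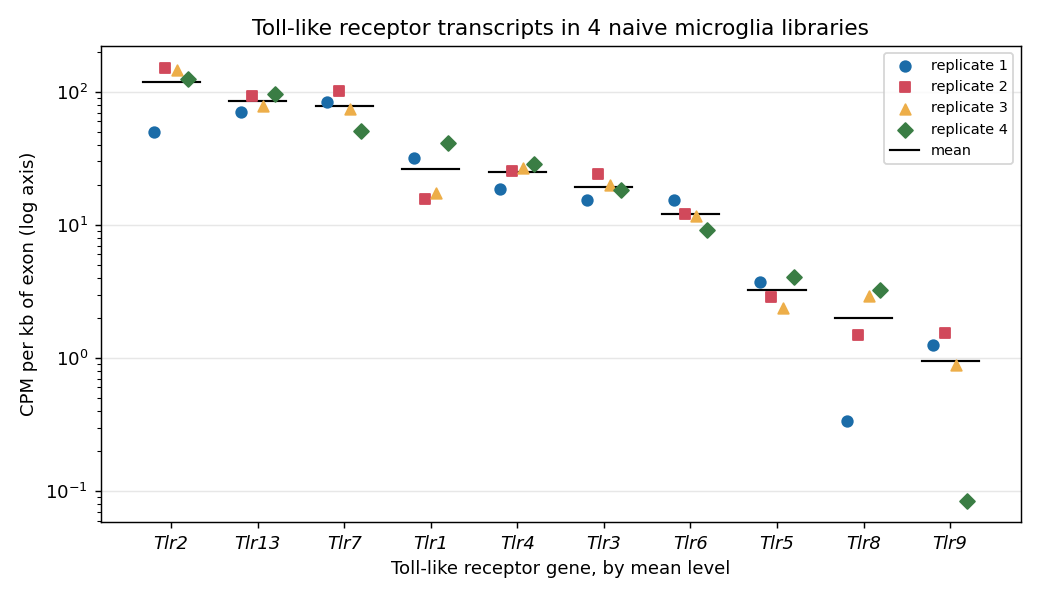
Levels of the 10 Toll-like receptor genes as CPM per kb of exon on a log axis, with 1 point per library and a line at the mean of 4 libraries. Tlr2, Tlr13 and Tlr7 lead, from 49.7 to 152 CPM per kb, while Tlr8 in replicate 1 and Tlr9 in replicate 4 lie far below the other libraries.

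In CPM, 9 of 10 members reached 1 in every library, against 38.8% of the 21681 genes with a count in any library. At 10 CPM in every library there were 8 members, against 26.4% of those genes, and at 100 CPM there were 4, Tlr2, Tlr4, Tlr7 and Tlr13, against 5.28%. The members were named as known receptors of microglia with such levels already seen, so these shares describe the list and are no test of it.

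Tlr2, Tlr1 and Tlr6 encode the surface receptors of bacterial lipoproteins: TLR2 pairs with TLR1 for triacylated and with TLR6 for diacylated forms. Tlr2 gave 149.8, 459, 444 and 378 CPM in replicates 1 to 4. Replicate 1 was the low library, 2.85-fold below the mean of the others. The genes with a mean of 200 to 800 CPM over replicates 2 to 4 numbered 611. Of these, 3.76% were as low as Tlr2 or lower in replicate 1 relative to that mean. Both the gene and the library were picked for this drop, so that share is no test of it.

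Tlr1 gave 107, 52.2, 57.9 and 137 CPM. It was higher in replicates 1 and 4 than in replicates 2 and 3, pairs that have no label of their own. The same pairs stood apart in the immediate early, microglial, neutrophil and oligodendrocyte sums, so this split is not particular to Tlr1. How many of all genes split in this way was not counted. Tlr6 gave 57.6, 45.2, 43.6 and 34.1 CPM, a narrower range with its highest value in replicate 1.

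The balance within the lipoprotein receptors therefore differed between libraries. The log2 ratio of Tlr2 over Tlr1, per kb of exon within a library, was 0.64, 3.29, 3.09 and 1.61, a mean of 2.16 ± 1.26 (SD, n = 4). That of Tlr2 over Tlr6 was 1.68, 3.65, 3.65 and 3.77, a mean of 3.19. Tlr2 was the more abundant gene in 4 of 4 libraries in both pairs. Tlr1 exceeded Tlr6 in 4 of 4 libraries, by 1.04, 0.36, 0.56 and 2.16 on the log2 scale.

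Tlr4 encodes the receptor of bacterial lipopolysaccharide, and Tlr5 that of flagellin. Tlr4 gave 104, 141, 148 and 159 CPM, so its libraries lay within 1.52-fold of each other. Tlr5 gave 17.9, 13.8, 11.5 and 19.5 CPM, within 1.70-fold. Tlr4 exceeded Tlr5 by 2.94 ± 0.49 on the log2 scale per kb (SD, n = 4) in 4 of 4 libraries.

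Among the endosomal receptors, TLR13 of mice recognises a bacterial ribosomal RNA, TLR7 single-stranded RNA, TLR8 RNA degradation products, TLR3 double-stranded RNA and TLR9 DNA with unmethylated CpG. Tlr13 gave 304, 399, 340.1 and 418 CPM and was the steadiest member, within 1.38-fold and with an SD of 14.4% of its mean. Tlr7 gave 346, 414, 303 and 209 CPM, with replicate 4 the lowest. Their log2 ratio per kb, Tlr13 over Tlr7, was -0.26, -0.13, 0.09 and 0.92, so their order differed between libraries. Without replicate 4 the mean ratio was -0.10 instead of 0.15.

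Tlr3 gave 79.9, 125, 103 and 95.0 CPM, within 1.57-fold. Tlr8, the neighbour of Tlr7 on chromosome X, was far lower and uneven. Its levels were 1.21, 5.36, 10.5 and 11.5 CPM. The exact Clopper-Pearson 95% intervals ran from 0.785 to 1.79, 4.45 to 6.40, 9.20 to 11.9 and 10.1 to 13.1 CPM. The intervals of replicates 3 and 4 overlap, and those of replicates 1 and 2 lie below both. The genes with a mean of 5 to 18 CPM over replicates 2 to 4 numbered 3239. Of these, 18.8% were as low as Tlr8 or lower in replicate 1 relative to that mean.

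Tlr9 gave 4.37, 5.36, 3.09 and 0.295 CPM, the last from 6 counts (95% interval 0.108 to 0.641). Its level in replicate 4 was 14.5-fold below the mean of the others. The genes with a mean of 2 to 8 CPM over replicates 1 to 3 numbered 2951. Of these, 53.8% were as low as Tlr9 or lower in replicate 4 relative to that mean. They include genes counted in 1 library only, such as Fcer2a, at 6.41 CPM in replicate 1 and 0 in the others. The share therefore does not show how common such a gap was among genes counted in each of replicates 1 to 3. Tlr7 exceeded Tlr8 by 7.94, 6.08, 4.66 and 3.99 on the log2 scale per kb, a mean of 5.67 (4.91 without replicate 1). Tlr7 exceeded Tlr9 by 6.07, 6.03, 6.37 and 9.12, a mean of 6.90 (6.16 without replicate 4). Tlr8 over Tlr9 gave -1.87, -0.04, 1.71 and 5.14, so those genes had no common order.

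**Figure D2:**
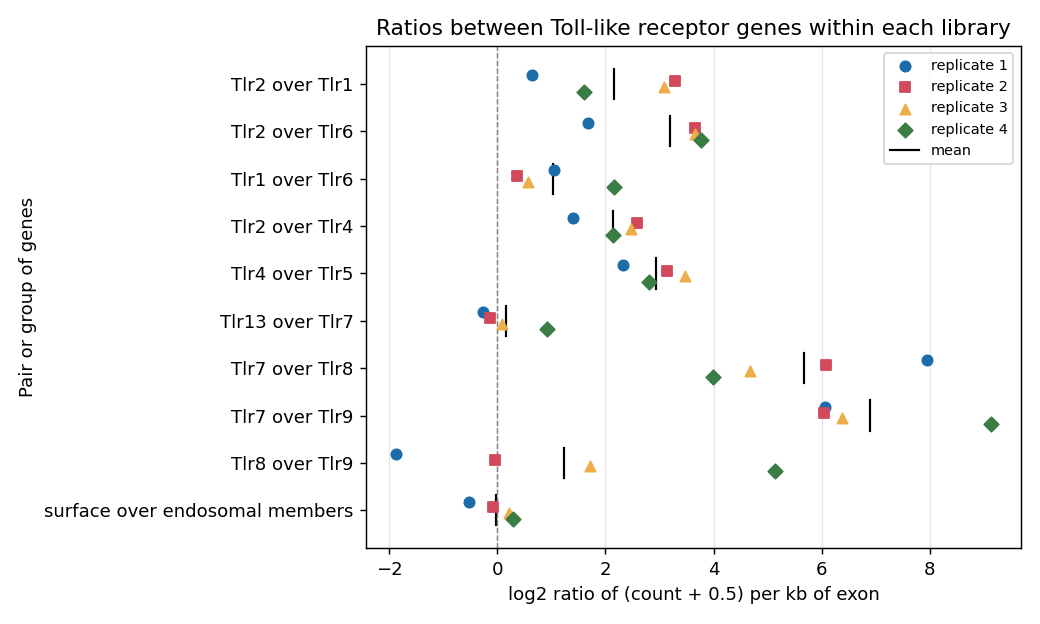
Log2 ratios between Toll-like receptor genes per kb of exon, with 1 point per library, a line at the mean of 4 libraries and a dashed line at equal levels. Tlr2 lies above Tlr1 and Tlr6 in every library, Tlr13 over Tlr7 and Tlr8 over Tlr9 cross 0, and surface over endosomal members runs from -0.53 to 0.29.

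Of the 45 pairs of members, 37 had 1 order in all 4 libraries and 8 were mixed. The mixed pairs were Tlr2 with Tlr13, Tlr2 with Tlr7, Tlr13 with Tlr7, Tlr1 with Tlr4, Tlr1 with Tlr3, Tlr3 with Tlr6, Tlr5 with Tlr8 and Tlr8 with Tlr9. The levels thus fell into the leading genes Tlr2, Tlr13 and Tlr7, then Tlr1, Tlr4, Tlr3 and Tlr6, then Tlr5, Tlr8 and Tlr9. Every pair taken from different tiers kept 1 order in these libraries. The narrowest gap was that of Tlr7 over Tlr1 in replicate 4, at 0.32 on the log2 scale per kb. The mean of Tlr7 over Tlr1 was 1.63, or 1.32 with shared sequence taken out of the length. For each pair of 1 order an exact permutation test that flips signs (two-sided) gave p = 0.125, adjusted p = 0.152 over the 45 pairs, and 4 libraries cannot give less than 0.125. The mixed pairs had p from 0.25 to 1 in the same exact permutation test. Orders between near neighbours also rest on the length used: without a length correction the mean of Tlr2 over Tlr13 was -0.14 instead of 0.37, and Tlr3 over Tlr1 was 0.29 instead of -0.35.

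Tlr2, Tlr13 and Tlr7 together made up 70.3%, 80.6%, 78.6% and 72.4% of the summed level per kb of the 10 genes in replicates 1 to 4, a mean of 75.5% ± 4.95 (SD, n = 4). Tlr2 alone took 17.0%, 35.5%, 38.5% and 33.2%, and Tlr7 took 29.0%, 23.6%, 19.4% and 13.6%. Tlr13 kept a share between 20.7% and 25.7%. The 5 surface members took 41.0%, 48.5%, 53.7% and 55.1%, so neither the surface nor the endosomal class led in all libraries.

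**Figure D3:**
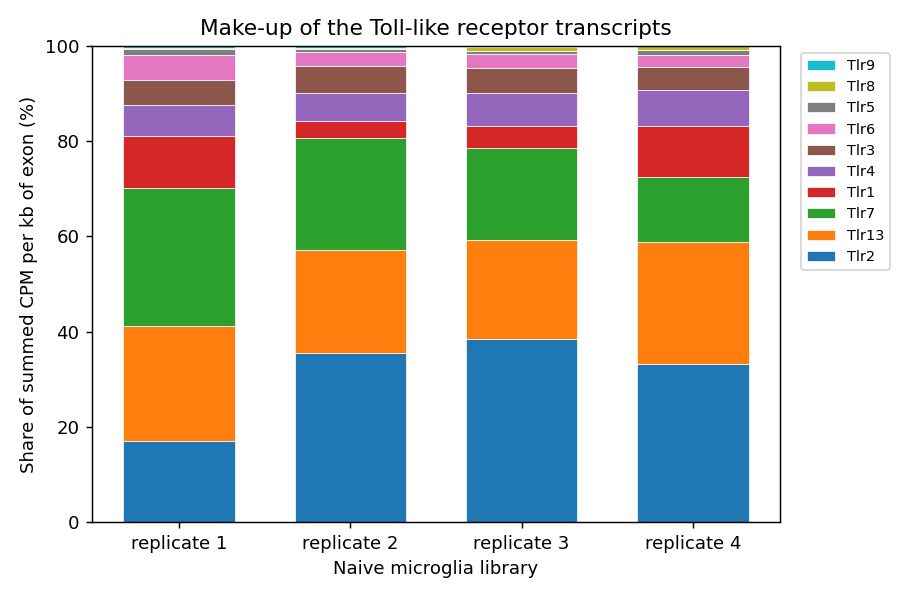
Share of each gene in the summed CPM per kb of the 10 Toll-like receptor genes, 1 bar per library, in percent. Tlr2 makes up 17.0% of the bar of replicate 1 and 33.2% to 38.5% of the others, while Tlr13 stays between 20.7% and 25.7%.

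The spread between libraries was tested against the trend at each gene's level with edgeR's quasi-likelihood fit, adjusted over all 9075 genes that passed the filter on low counts. Of the 9 members tested, 0 passed, against 0% of all genes (0 of 9075). Tlr9 did not pass the filter. At an unadjusted p under 0.05 the counts were 0 of 9 members and 390 genes, or 4.3%, and DESeq2 marked 0 genes as dispersion outliers. The common biological coefficient of variation was 0.535, a wide spread with 4 libraries, so the count of 0 does not show that genes varied alike. The trend and the scatter around it were also fitted to these same genes, so only genes far outside the rest could pass. The log2 ratio of dispersion to trend was 2.01 for Tlr2 (edgeR adjusted p = 0.94), 1.36 for Tlr8, 0.95 for Tlr1 and 0.67 for Tlr7. It was -0.87 for Tlr3, -1.16 for Tlr4, -1.59 for Tlr6, -1.64 for Tlr13 and -2.86 for Tlr5. The median of the 9 was -0.87, beside -0.08 over all genes tested. The value of Tlr2 rested on replicate 1, without which it was -1.15.

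**Figure D4:**
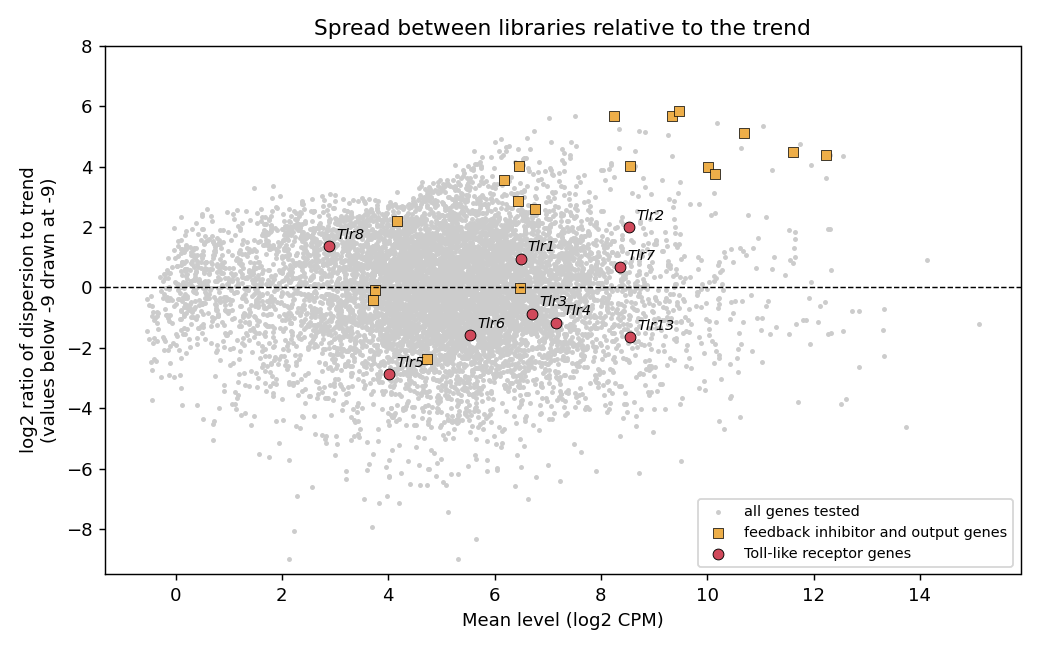
Log2 ratio of each gene's dispersion between libraries to the trend, against its mean level, for the 9075 genes tested, with Toll-like receptor genes and the genes of the feedback and output lists marked. The Toll-like receptor genes lie between -2.86 and 2.01, the 9 feedback genes between -2.37 and 5.85, and the 9 output genes between -0.08 and 5.67, so the ranges overlap.

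Genes that work with the receptors were read from 8 lists of 79 genes in all, of which 61 were tested for spread. By edgeR 0 passed, and 17 had an unadjusted p under 0.05, beside 4.3% of all genes tested. The median log2 ratio to the trend of the 61 was 0.85, beside -0.08 over all genes tested. Among the 2 other receptor genes of mice, Tlr12, known for sensing profilin, gave 33.1, 53.5, 53.9 and 38.8 CPM, and Tlr11 had 0 counts in all libraries.

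Of 11 coreceptors and chaperones, 10 reached 10 CPM in every library. Unc93b1, which carries the endosomal receptors out of the endoplasmic reticulum, stood at 2046 ± 259 CPM (SD, n = 4). Cd14, the coreceptor of TLR4 and TLR2, stood at 1385 ± 239 CPM and Ly86, the partner of the TLR homologue CD180, at 990.4 ± 248 CPM. Ly96, which encodes the MD-2 subunit that TLR4 needs to bind lipopolysaccharide, gave 30.4, 30.4, 30.9 and 35.8 CPM and was among the steadiest genes, with a log2 ratio to the trend of -6.43. Of the 11 genes that process endosomal receptors or their ligands, 10 reached 1 CPM in every library, led by the proteases Ctss, Lgmn and Ctsb at 13255, 10086 and 5714 CPM. The near-identical genes Rnaset2a and Rnaset2b are uncertain.

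Of 6 adaptors, 4 reached 10 CPM in every library. Pik3ap1, which links receptors to phosphoinositide 3-kinase, gave 263, 319, 193 and 76.7 CPM. Myd88 gave 153, 119, 125 and 90.3 CPM, and Ticam2, which brings TRIF to TLR4, stood at 39.98 ± 13.3 CPM (SD, n = 4). Of 15 kinases and ubiquitin ligases, 7 reached 1 CPM in every library, led by Irak2 at 113 ± 29.8 CPM, Tbk1 at 104 ± 49.3 CPM and Ikbkb, a kinase of the NF-kappa-B inhibitor, at 91.6 ± 35.1 CPM.

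Downstream lists held genes with both wide and narrow spread. The 10 transcription factors summed to 2392, 16202, 14049.7 and 2000.4 CPM in replicates 1 to 4, led by the AP-1 subunit genes Jun and Fos and by Irf5, at 367, 383, 277 and 267 CPM. The 10 feedback inhibitors summed to 1519.6, 20747, 18492 and 1384 CPM, and the NF-kappa-B inhibitor gene Nfkbia gave 382, 5250.01, 5702 and 505 CPM. The other leading genes of that list were Zfp36 and Atf3, at means of 4520.05 and 1556 CPM. The 14 output genes summed to 691, 5125, 5202 and 978 CPM, led by the chemokine genes Ccl4 and Ccl3 and by Il1a.

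The 10 receptor genes themselves summed to 1171, 1660.4, 1465 and 1461 CPM. Median log2 ratios to the trend were 2.04 for the 9 transcription factors tested, 4.40 for 9 feedback inhibitors and 3.77 for 9 output genes, with 4, 5 and 7 genes at an unadjusted p under 0.05 by edgeR. Over all genes tested the median was -0.08 and the share at such a p was 4.3%. Jun and Fos of the transcription factors and Zfp36 and Atf3 of the feedback inhibitors are also in the immediate early list, so those sums share genes with it. No output gene is in that list, and the output sum moved with it as well. Other genes of these lists lay near or below the trend, with log2 ratios down to -0.68 among transcription factors, -2.37 among feedback inhibitors and -0.08 among output genes. The difference between the receptors and these lists was not tested.

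**Figure D5:**
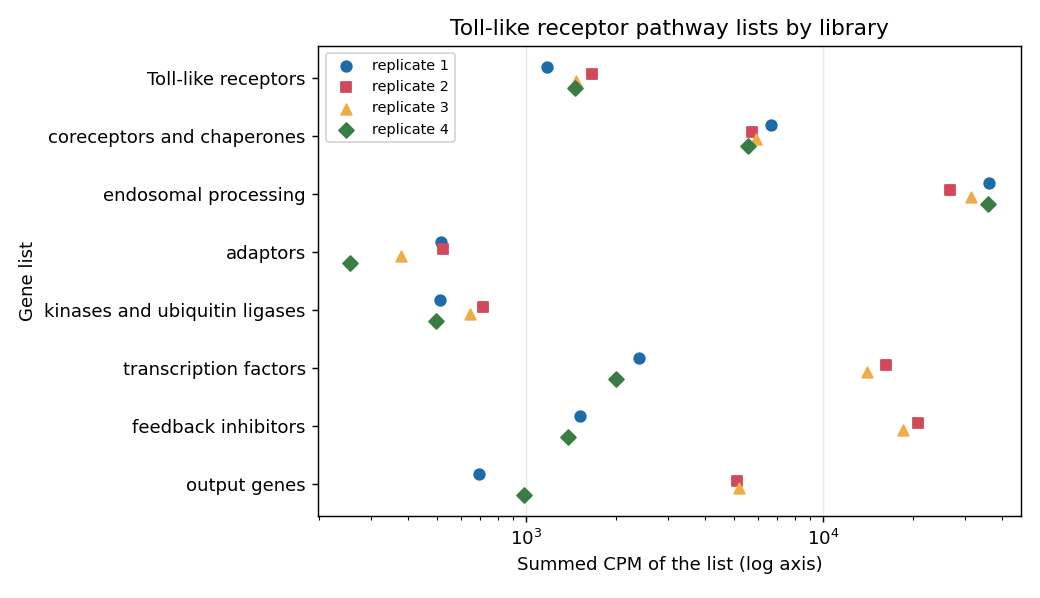
Summed CPM of the Toll-like receptor genes and of 7 lists of pathway genes on a log axis, with 1 point per library. The receptor sum lies between 1171 and 1660.4 CPM, while the transcription factor, feedback and output sums lie far higher in replicates 2 and 3 than in 1 and 4.

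Markers of other cells that could carry these receptors were read in the same libraries. The sort gate is designed to leave out neutrophils and monocytes, which carry high CD45, most B cells, which lack CD11b, and astrocytes, which lack CD45. In bulk samples, fewer cells of a type and less RNA per cell cannot be told apart. Neutrophils are known to express Tlr2 and Tlr4. Of their 12 listed genes 10 reached 1 CPM in every library, and the list summed to 1529, 301, 288 and 2443 CPM. Within the list Ltf, Elane and Ly6g were highest in replicate 1 and the other genes in replicate 4, and Ly6g had 0 counts in replicates 3 and 4. Tlr2 and Tlr4 were both lowest in replicate 1, where the neutrophil sum was above those of replicates 2 and 3. Tlr4 was highest in replicate 4, where the neutrophil sum was highest. Tlr1 was high in replicates 1 and 4, where the neutrophil and microglial sums were also high and the immediate early sum was low. The part of neutrophil RNA in the levels of Tlr1, Tlr2 and Tlr4, and of the other lists in that of Tlr1, was not tested.

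B cells and plasmacytoid dendritic cells are known for Tlr9 and Tlr7. Of 8 listed B cell genes 2 reached 1 CPM in every library, the B cell list summed to 124, 21.1, 31.9 and 134 CPM, and Ms4a1 was at 0 counts in all 4. Tlr9 was at 4.37 CPM in replicate 1 and 0.295 CPM in replicate 4, where the B cell sums were close. The part of B cell RNA in the level of Tlr9 was not tested. Of 8 plasmacytoid dendritic cell genes 3 reached 1 CPM in every library, the list summed to 1190.1, 859, 858 and 1433 CPM, nearly all of it Lair1 and Tcf4, and Klk1 and Spib were at 0 counts in all 4.

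Conventional dendritic cells and astrocytes are known to express Tlr3. For the dendritic cell list 2 of 8 genes, Cd209a and Batf3, reached 1 CPM in every library, and Xcr1 was at 0 counts. The list summed to 58.3, 54.4, 53.8 and 146 CPM, most of it Cd209a and Batf3, which were both highest in replicate 4. For the astrocyte list 6 of 8 genes reached 1 CPM in every library, and the sum was 316, 434, 505 and 266 CPM. The part of dendritic cell and astrocyte RNA in the level of Tlr3 was not tested. Monocyte genes summed to 87.5 to 212 CPM, with 4 of 8 at 1 CPM in every library, and those of border-associated macrophages, which carry many of the same receptors, to 294 to 862 CPM, with 7 of 8. Oligodendrocyte genes summed to 517, 1844, 1875 and 629 CPM, with 8 of 8 at 1 CPM in every library, and endothelial genes to 81.3 to 153 CPM, with 2 of 8.

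The genes whose profile over the 4 libraries lay nearest to a member were found among 8167 other genes whose mean was at least 10 CPM, for the 5 members averaging at least 100 CPM. Likeness was the root mean square difference of log2(CPM + 0.5), each gene centred on its own mean. For Tlr2 the nearest were Ofd1, Slc38a2 and Fcna, at 0.06 each. For Tlr13 they were Pdia4, Riok3 and Npc1 at 0.03 to 0.04, and for Tlr7 they were Mettl9, Hspa1a and Ltn1 at 0.05 each. For Tlr4 they were Rpl29, Ube2d3 and Ppp1r12c at 0.005 to 0.03, and for Tlr3 Alox5, Tbca and Ino80c at 0.04 to 0.05. With 4 libraries many genes share a profile. Among the members themselves Tlr4 and Tlr13 were the most alike, at 0.13.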

How the data were processed

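RNA sequencing counts of 4 naive microglia libraries were used. The authors deposited unnormalized read counts for each gene symbol, made with STAR 2.7.10a, SAMtools 1.16.1 and HTSeq 0.11.2 on GRCm39, per the submitters' processing notes. Neither annotation nor strand setting is stated in those notes or the labels. Each file closes with 5 rows of reads given to no gene (19.9% to 22.7% of reads listed), left out of totals and tests. CPM was computed on reads assigned to genes. Exon lengths, the union of annotated exons, came from GENCODE for GRCm38, matched by symbol (89.1% of rows, 98.3% of counts). Coordinates printed are of GRCm38, not the authors' build.

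Spread was tested with edgeR 4.0.16 (R 4.3.3): filterByExpr with a minimum count of 10, TMM, an intercept-only quasi-likelihood fit and an upper-tail F test of each gene's dispersion against the trend, with Benjamini-Hochberg adjustment at 0.05. Pairs used log2 ratios of (count + 0.5) per kb. DESeq2 1.42.0 supplied alternatives. Every pair of libraries differed by more than counting noise, which does not show that they came from separate mice or RNA. Members and lists were chosen with earlier results of these data known. Tlr2, Tlr8 and Tlr9, the library compared for each and the level brackets were picked after their values were seen, so those shares are no tests. Named genes were the 10 members, the 3 highest genes of each pathway list and any gene called for spread, the 3 nearest profiles of members at 100 CPM or more, and listed markers. Ly96 falls outside that rule and was named after its values were seen, and the 6 motifs were chosen with these results known. Coding length, an alternative, came from GENCODE coding sequence because no protein table was used here. One marker of the microglial list is not reported here and was left out of its count and sums. Intervals and floors cover counting error only, since amplified reads are not independent molecules.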

Additional observations from a re-analysis of the deposited data

Results flagged for a closer look

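In 4 of 48 values checked, the highest or lowest library stood apart from the other 3 by more than the 95% critical value of Dixon's test, and chance alone gives about 1 in 20. The log2 ratio of Tlr2 over Tlr6 was 1.68 in replicate 1 and 3.65 to 3.77 in the others. The log2 ratio of Tlr7 over Tlr9 was 9.12 in replicate 4, where Tlr9 had 6 counts, and 6.03 to 6.37 in the others. Irak2 stood at 157 CPM in replicate 2 and at 94.2 to 103 CPM in the others. Tbk1, a kinase of the interferon arm, stood at 177 CPM in replicate 4 and at 71.5 to 87.7 CPM in the others.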

How the results depend on the processing

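The counts of genes and of members that passed the test of spread were 0 under every alternative tried: DESeq2 size factors, library size alone, no filter, a robust prior, bias-adjusted deviance (added after seeing the data), DESeq2's dispersion outliers and each replicate left out. Each of these set genes against a trend fitted to the same genes, so the repeated 0 is a weak check. Pairs of 1 order numbered 37 to 39 over the length and pseudocount settings, and the members above 100 CPM throughout numbered 4 with TMM. Leaving out a replicate cannot lower either count and is no check of them. Mean CPM of each member moved by less than 1 SD with TMM or DESeq2 size factors.

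Signs turned in these cases, none of them past a threshold. The log2 ratio of dispersion to trend turned by DESeq2 for Tlr1 (-0.67), Tlr2 (-0.17) and Tlr7 (-1.61). DESeq2 centres this ratio lower, with a median over all genes of -0.94 beside -0.08 by edgeR, and Tlr1 and Tlr2 stayed above that median. With no filter the ratio turned for Tlr8 (-0.32). With 1 replicate left out it ranged from -1.15 to 3.16 for Tlr2, -2.03 to 0.40 for Tlr3, -6.97 to 0.092 for Tlr4, -0.72 to 1.38 for Tlr7 and -1.10 to 1.83 for Tlr8. Log2 ratios with 1 replicate left out ranged from -0.10 to 0.29 for Tlr13 over Tlr7, -0.069 to 2.27 for Tlr8 over Tlr9, -0.22 to 0.27 for Tlr4 over Tlr1 and -0.13 to 0.14 for surface over endosomal members. Tlr2 over Tlr13 was -0.14 and Tlr3 over Tlr1 was 0.29 with no length correction, and Tlr3 over Tlr1 was 0.10 with coding length. Surface over endosomal members was 0.0026 with coding length and 0.032 with shared sequence taken out of the length (added after seeing the data). Causes other than the change of length or of libraries were not tested. No paired analysis was possible because there is 1 group. Depth limits Tlr8 and Tlr9 most, with 25 and 6 counts in their lowest libraries.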
